A study of Rattus norvegicus with 15 samples.

Results

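Transcripts of 7 genes through which the rat colon senses bacteria were measured: Lbp, Cd14, Tlr4, Tlr2, Myd88, Nfkb1 and Nfkbia. They were chosen by Ensembl ID, and an ID was kept if it was among the 32883 genes counted and lay on the chromosome named for its symbol. All 7 of 7 were kept. In the Rnor6 annotation of the counts they were Lbp (ENSRNOG00000014532, 3:154786215-154813464), Cd14 (ENSRNOG00000017819, 18:29560365-29562153), Tlr4 (ENSRNOG00000010522, 5:82587420-82601052), Tlr2 (ENSRNOG00000009822, 2:182840727-182846061), Myd88 (ENSRNOG00000013634, 8:128022473-128026841), Nfkb1 (ENSRNOG00000023258, 2:240773456-240866689) and Nfkbia (ENSRNOG00000007390, 6:76267228-76270457). Lbp and Tlr4 lie on the plus strand and the others on the minus strand, and the counts take the exons of each gene. The question was whether these genes differ with genotype or with antibiotics.

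Gram-negative bacteria are recognised by the lipopolysaccharide of their outer membrane. LBP, the lipopolysaccharide-binding protein, carries it to CD14, a co-receptor with no signalling domain of its own, and CD14 passes it to the receptor TLR4. TLR2 recognises bacterial lipoproteins instead. Both receptors recruit the adaptor MyD88, and the signal ends at NF-kB, a transcription factor with a subunit cut from the product of Nfkb1. IkB-alpha, the product of Nfkbia, holds NF-kB in the cytoplasm, and as a target gene of NF-kB it forms a feedback loop. CD14, TLR4 and TLR2 are known from monocytes and macrophages, though not from them alone, while the adaptor and the NF-kB genes are active in most cells. Which cells of the gut wall carried these transcripts was not measured here.

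RNA came from the mucosa and submucosa of the colon of outbred Sprague Dawley rats, with 3 libraries in each of 5 groups. WT rats carried no transgene, and TG rats were homozygous for a transgene on a bacterial artificial chromosome, under its own regulatory sequences. At 3 M (months), WT-C and TG-C rats were untreated, and WT-Ab and TG-Ab rats had drunk a mixture of ampicillin, amoxicillin with clavulanic acid, cefuroxime, vancomycin, neomycin and streptomycin in sucrose water for 2 weeks from 2.5 M. Whether the untreated rats drank sucrose is not stated in the sources used here. The fifth group was untreated WT rats labelled > 12 M, with 14 M in their titles. TG rats at > 12 M were not analysed here. Neither the animals behind each library nor the meaning of the replicate numbers is stated, so each p-value reflects how libraries of a group vary, which may be technical. The labels call the cells colon epithelial, although the sampled layers also hold immune, stromal and vessel cells. Markers of these cell types, and the transgene itself, were not analysed here, because the table used pairs 0 of the 32883 IDs with a symbol. In such bulk RNA, fewer cells of a type and less RNA per cell cannot be told apart.

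Total counts ranged from 15606835 to 28685094 per library. Library 1 of WT-Ab, of TG-C and of TG-Ab stood apart from the other 9 libraries at 3 M. They scored 66.8 to 98.3 on the first principal component of all genes, which held 60.8% of the variance, while the other 9 scored between −58.3 and 0.0202. Their mitochondrial transcripts took 6.05% to 9.35% of counts. Results that rest on them are given with and without them below. They were picked from these same data, so p-values and calls from fits without them are descriptions.

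The levels were described as CPM, the counts of a gene scaled to the same total in every library. Per kilobase of exon, Cd14 had the highest median over the 12 libraries at 3 M, at 76.0 CPM per kb, followed by Nfkbia at 54.2. Myd88 at 28.7, Nfkb1 at 26.8 and Tlr4 at 25.4 CPM per kb came next, and their ranges overlapped widely. Lbp at 4.79 and Tlr2 at 2.40 CPM per kb were the lowest. The order assumes that counts grow with exon length, which holds for the whole-transcript libraries named in the labels and not for the 3′ libraries named in the study's methods. Tlr2 rested on 74 to 316 counts per library and Lbp on 77 to 565, so counting error alone reached 11.6% and 11.4% of their lowest values. For the other 5 genes it stayed at or below 3.22%.

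**Figure D1:**
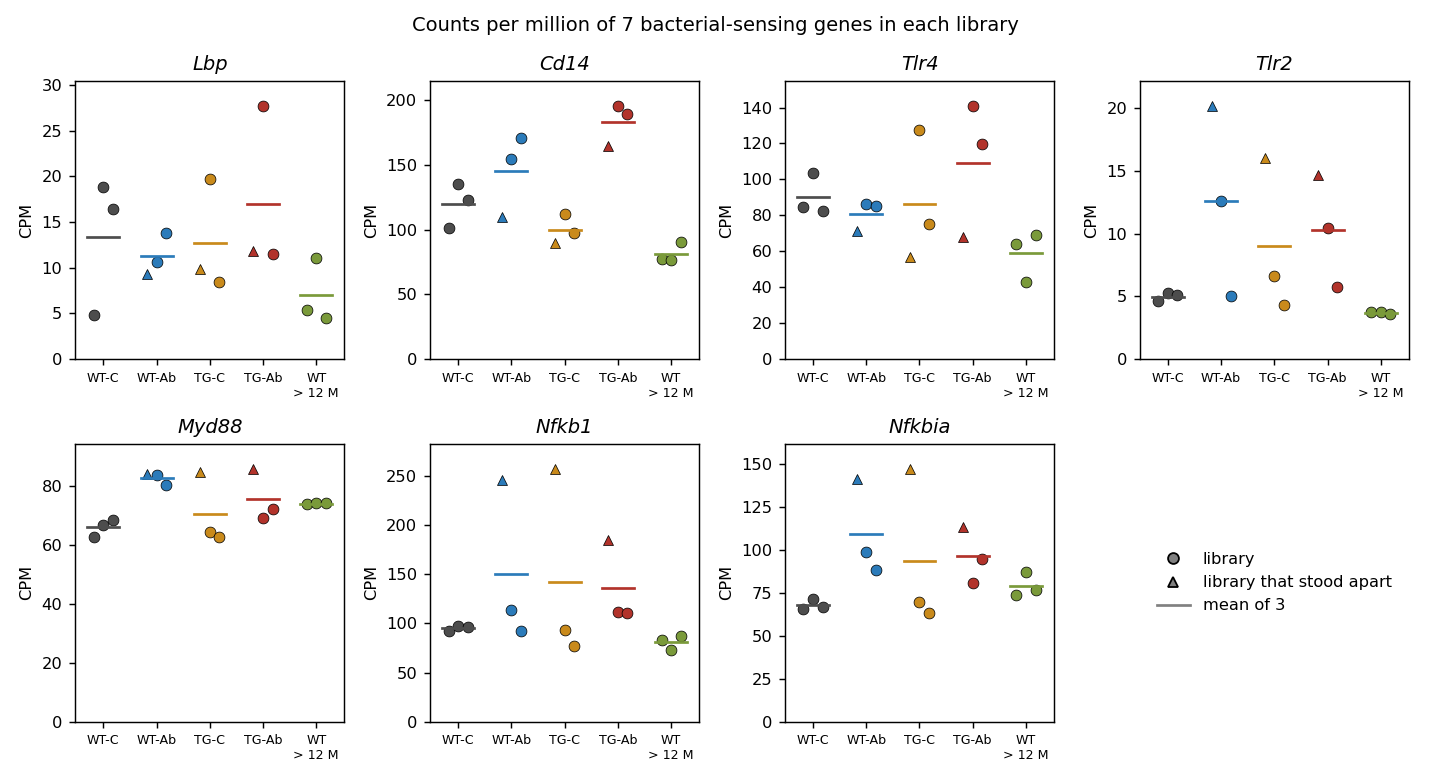
CPM (vertical axes, from 0) of each gene in the 15 libraries, grouped along the horizontal axes, with the mean of 3 libraries as a line and triangles for the 3 libraries that stood apart. The 3 TG-Ab libraries lay above the 3 TG-C libraries in Cd14, and the triangles were the highest points at 3 M in Tlr2, Myd88, Nfkb1 and Nfkbia.

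Nfkb1, Nfkbia and Tlr2 were highest in the 3 libraries that stood apart, whichever their group, and Tlr4 was lowest there. Nfkb1 measured 245.3 CPM in WT-Ab 1, 256.8 in TG-C 1 and 184.7 in TG-Ab 1, against 77.2 to 113.1 in the other 9 libraries at 3 M. Nfkbia measured 141.5, 147.3 and 113.4 CPM in these libraries, against 63.2 to 98.7 in the others. Thus the gene of the NF-kB subunit and the gene of its inhibitor were both high in the same libraries, 1 untreated and 2 treated. Tlr2 measured 20.2, 16.1 and 14.7 CPM there, against 4.29 to 12.6 CPM elsewhere at 3 M. Tlr4, the lipopolysaccharide receptor, measured 71.1, 56.6 and 67.9 CPM, against 75.1 to 140.7 CPM.

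These 4 genes kept the 3 libraries apart from the other 9 on all 3 scales examined, which were CPM, CPM scaled by TMM (trimmed mean of M-values) and CPM without mitochondrial counts. Myd88 did so only on the first scale, where it measured 84.2 to 85.8 CPM against 62.6 to 83.6. On the TMM scale its 70.6 to 79.5 CPM overlapped the 64.9 to 79.0 of the others. Cd14, at 89.8 to 165 CPM against 97.7 to 195, and Lbp, at 9.25 to 11.8 CPM against 4.80 to 27.7, overlapped on every scale. By CPM, 22.9% of the 12457 genes tested were higher in the 3 libraries than in the other 9, and 5.05% were lower. No test was made, since the 3 libraries were picked from the same data, and the part that cell types, depth or RNA quality play in their values was not tested.

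The ratio of Nfkbia to Nfkb1 in a library does not depend on how the library is scaled. It ranged from 0.573 to 0.614 in the 3 libraries and from 0.692 to 0.966 in the other 9 at 3 M. So Nfkb1 was higher relative to its inhibitor's transcript in the libraries where both were high.

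**Figure D2:**
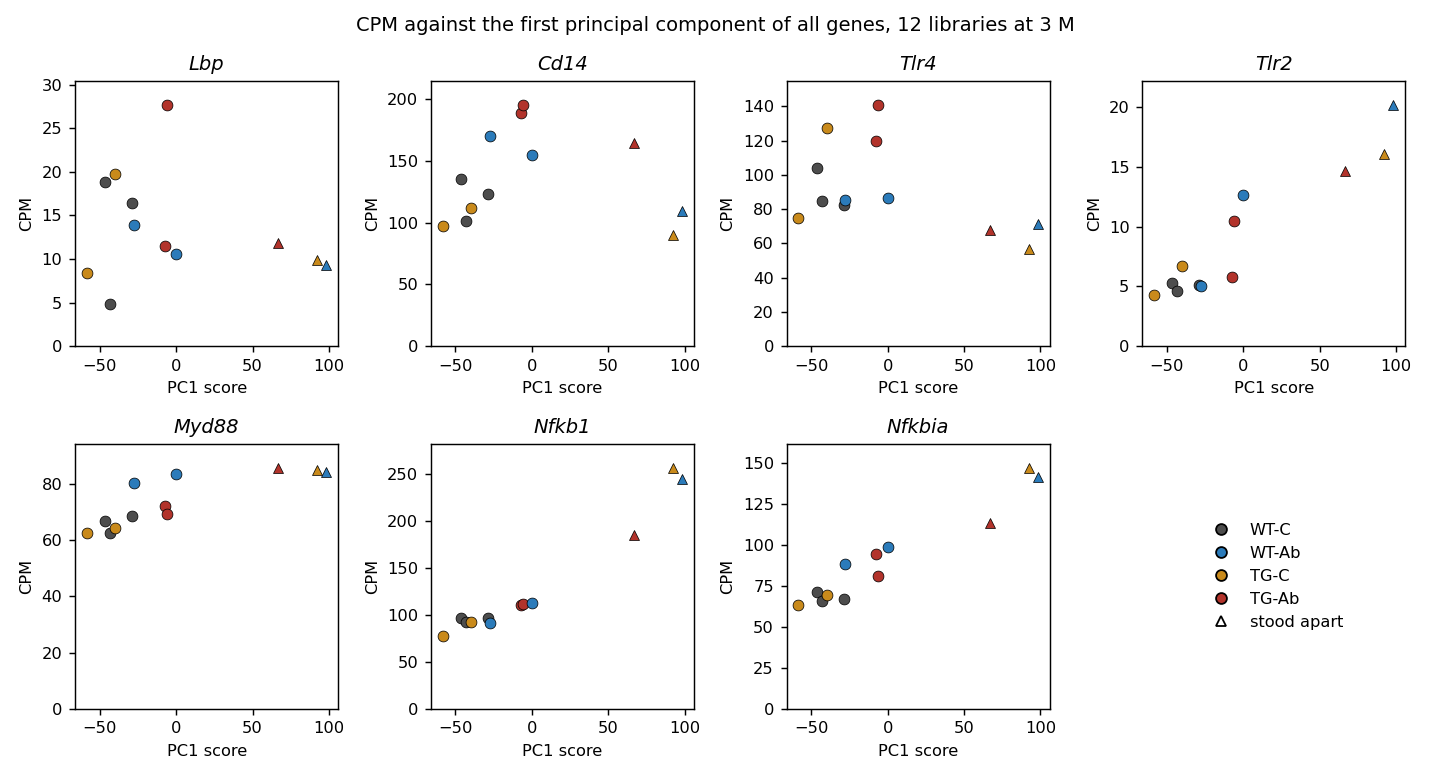
CPM of each gene (vertical axes, from 0) against the score of the library on the first principal component of all genes (horizontal axes, no unit) in the 12 libraries at 3 M, with colours for groups and triangles for the 3 libraries that stood apart. Nfkb1, Nfkbia and Tlr2 were highest at scores of 66.8 and above and Tlr4 was lowest there, while Cd14 was highest near a score of 0, in the TG-Ab libraries 2 and 3.

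Promoters are shown for the genes that were high in the same 3 libraries and whose promoter held the kB consensus, the motif bound by NF-kB. RefSeq promoters of the GRCr8 build, from 250 bases before to 50 after the start of the gene, were at hand for 6 of the 7 genes, without Lbp. The kB decamer of the immunoglobulin kappa enhancer was in none of the 6 and in 0.111% of all 33469 promoters, on either strand. A loose form that fixes only the outer bases was in 47.3% of all promoters, too common to read. The kB consensus, which lies within the loose form and was chosen after the promoters were seen, was on either strand in Nfkbia, Tlr2 and Nfkb1 and in 7.51% of all promoters. Its matches are in capitals, and each stretch runs 5′ to 3′ on the strand of its gene. Counted from the start, the match in Nfkbia began at base −31 and read on the opposite strand. In Tlr2 overlapping matches began at bases −206 and −205 and another at −42. In Nfkb1 the match began at base 4, just inside the transcript. The stretches were chr6:78597073-78597322 (minus strand) for Nfkbia, chr2:171504558-171504807 (minus strand) for Tlr2 and chr2:226805440-226805469 (minus strand) for Nfkb1.
Nfkbia: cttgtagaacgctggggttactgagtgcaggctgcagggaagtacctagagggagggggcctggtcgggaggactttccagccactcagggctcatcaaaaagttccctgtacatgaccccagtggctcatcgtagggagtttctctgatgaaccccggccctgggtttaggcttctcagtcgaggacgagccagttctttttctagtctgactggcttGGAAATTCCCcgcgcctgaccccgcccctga
Tlr2: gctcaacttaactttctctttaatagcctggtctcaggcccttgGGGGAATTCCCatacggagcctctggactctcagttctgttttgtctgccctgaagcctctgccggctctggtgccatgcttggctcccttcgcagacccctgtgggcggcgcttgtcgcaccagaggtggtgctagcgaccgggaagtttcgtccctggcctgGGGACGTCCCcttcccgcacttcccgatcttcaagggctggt
Nfkb1: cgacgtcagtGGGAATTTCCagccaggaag
A match of letters is a description and not a site of binding. The windows of Cd14, Tlr4 and Myd88 did not hold the letters of the consensus.

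Antibiotics were compared first in TG rats, the antibiotic comparison that the series' design text names. Cd14 measured 89.8, 111.8 and 97.7 CPM in TG-C libraries 1, 2 and 3 and 164.8, 195.4 and 189.1 CPM in TG-Ab libraries 1, 2 and 3. All 3 treated libraries lay above all 3 untreated ones, on each of the 3 scales, as 10.6% of the genes tested did by CPM. The log2 fold change was 0.74 (SE 0.179, 95% interval 0.31 to 1.17), and the unadjusted p was 0.00525. After Benjamini-Hochberg adjustment over the 12283 genes tested, edgeR's quasi-likelihood test gave an adjusted p of 0.450, so Cd14 did not pass. None of the 7 genes did, where 0.00814% of all genes passed. At an unadjusted p under 0.05, Cd14 was the 1 gene of the 7, beside 7.13% of all genes.

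Cd14 is the gene whose call in TG rats turned with the method. DESeq2's Wald test called it at an adjusted p of 0.0180 (log2 fold change 0.76), with 1.64% of all genes called. Without library 1 of each group edgeR's adjusted p was 0.133 at a log2 fold change of 0.73, and with a block for the replicate number 0.112. Both changes together, tried after the data were seen, gave 0.00673, with 16.4% of all genes called and 1 residual degree of freedom. Over all alternatives the adjusted p ran from 0.00673 to 0.99995 while the log2 fold change stayed between 0.63 and 0.85. Library by library, Cd14 in the treated TG library was 1.84, 1.75 and 1.94 times as high as in the untreated one of the same number. For Cd14 too, no result is read from these ratios, since the share of all genes higher in every such pair was not counted.

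The other 6 genes had no such separation in TG rats. Tlr4, which CD14 serves, measured 56.6, 127.4 and 75.1 CPM in TG-C libraries 1, 2 and 3 and 67.9, 140.7 and 119.5 CPM in TG-Ab libraries 1, 2 and 3. The groups overlapped, since library 2 was high and library 1 low in both. Its log2 fold change was 0.20 (95% interval −0.80 to 1.20). Lbp had a log2 fold change of 0.29 (−0.90 to 1.47) and Tlr2 of 0.11 (−1.13 to 1.35). Myd88 had −0.02 (−0.36 to 0.32), Nfkb1 −0.15 (−1.21 to 0.90) and Nfkbia −0.05 (−0.76 to 0.67). Within the pairs of TG-C and TG-Ab libraries that share a number, Tlr4 was 1.20, 1.104 and 1.59 times as high in the treated library for numbers 1, 2 and 3, and Lbp 1.19, 1.40 and 1.37 times. Both were thus higher in 3 of 3 pairs by CPM. So was Myd88, at 1.01, 1.075 and 1.15 times, although its fitted log2 fold change was −0.02. The share of all genes higher in 3 of 3 pairs was not counted, so no result is read from this. With these pairs in the fit as a replicate block, the 95% interval of the log2 fold change was −0.14 to 0.59 for Tlr4, −0.16 to 0.70 for Lbp, −0.39 to 0.75 for Tlr2 and −0.51 to 0.45 for Nfkb1, and none of these genes passed. Without library 1 of both groups the log2 fold change was 0.26 for Nfkbia and 0.23 for Nfkb1, which turned their sign.

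**Figure D3:**
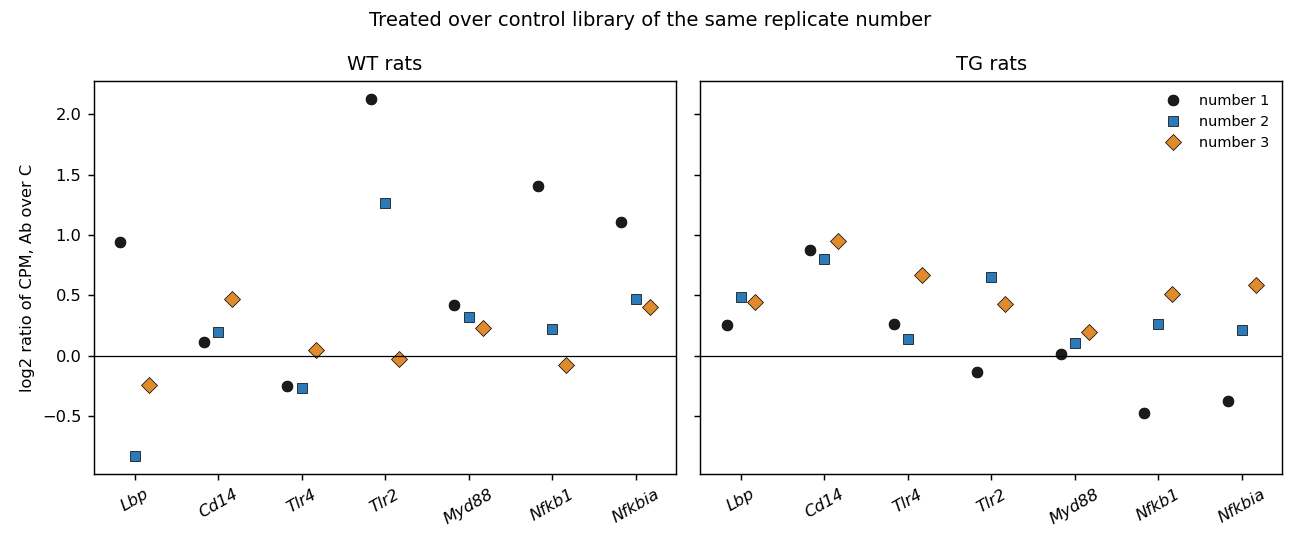
Log2 ratio of CPM (vertical axis) of the treated over the untreated library of the same replicate number for each gene (horizontal axis), in WT rats (left) and TG rats (right), with 1 symbol for each number. In TG rats the 3 points of Cd14 lay between 0.81 and 0.95, and in WT rats between 0.12 and 0.47. The numbers matched libraries in TG rats by their deviations and not in WT rats.

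In WT rats the genes with the smallest p were those of the inhibitor and of the lipoprotein receptor. Nfkbia measured 65.6, 71.2 and 66.9 CPM in WT-C libraries 1, 2 and 3 and 141.5, 98.7 and 88.6 CPM in WT-Ab libraries 1, 2 and 3. The 3 treated libraries lay above the 3 untreated ones, as those of 23.1% of the genes tested did, and WT-Ab 1 was far above the rest. The log2 fold change was 0.53 (SE 0.160, 95% interval 0.15 to 0.91), and the unadjusted p of 0.0142 became 0.281 after edgeR's p-values were adjusted. Tlr2 measured 4.61, 5.25 and 5.08 CPM in WT-C and 20.2, 12.6 and 4.998 CPM in WT-Ab libraries 1, 2 and 3. WT-Ab 3 lay among the untreated libraries, so the groups overlapped, and the log2 fold change of 1.16 (SE 0.444, 95% interval 0.09 to 2.23) had an unadjusted p of 0.0372 and, in edgeR's test, 0.298 after adjustment. None of the 7 genes passed, and 0% of all genes did. At an unadjusted p under 0.05, edgeR gave 2 of the 7 beside 16.3% of all genes, and DESeq2's Wald test called none of the 7 beside 5.04% of all genes.

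Without WT-Ab 1 the log2 fold change of Nfkbia was 0.36 and that of Tlr2 0.71. Myd88, the adaptor, measured 62.7, 66.8 and 68.5 CPM in WT-C and 84.2, 83.6 and 80.3 CPM in WT-Ab libraries 1, 2 and 3. The treated libraries lay above the untreated ones on each of the 3 scales, as those of 23.1% of the genes tested did by CPM. The log2 fold change was small, at 0.18 (95% interval −0.06 to 0.42, adjusted p 0.383 in edgeR's quasi-likelihood test). Nfkb1 measured 92.4, 97.0 and 96.6 CPM in WT-C and 245.3, 113.1 and 91.7 CPM in WT-Ab. Its log2 fold change of 0.48 rested on WT-Ab 1, without which it was −0.0012.

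Cd14 measured 101.2, 135.2 and 123.0 CPM in WT-C and 109.7, 154.8 and 170.6 CPM in WT-Ab libraries 1, 2 and 3, with overlap between the groups. Its log2 fold change was 0.14 (95% interval −0.41 to 0.70), and 0.34 without WT-Ab 1. Tlr4 had −0.30 (−0.71 to 0.10) and Lbp −0.39 (−1.59 to 0.82). On the TMM scale the 3 WT-Ab libraries lay below the 3 WT-C libraries in Tlr4, while by CPM and without mitochondrial counts the groups overlapped. The share of all genes that lay lower on the TMM scale was not counted, so no result is read from this.

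Over both genotypes, with 6 treated and 6 untreated libraries and genotype as a term, none of the 7 genes passed, beside 2.79% of all genes. Cd14 had a log2 fold change of 0.45 (SE 0.174, 95% interval 0.07 to 0.83), and edgeR's unadjusted p of 0.0245 became 0.176 after adjustment. At an unadjusted p under 0.05 it was the 1 gene of the 7, beside 20.5% of all genes, and DESeq2's Wald test called none of the 7 beside 10% of all genes. In a two-sided exact permutation test of log2 CPM within genotype, its mean difference of 0.57 had p = 0.015, where 0.005 is the smallest p possible, and 0.21 after adjustment over the 14 tests made on the 7 genes and both factors. Myd88 had a difference of 0.22 on the log2 CPM scale and an exact p of 0.045 (0.315 adjusted), but 0.09 (95% interval −0.08 to 0.25) on the TMM scale of the fit.

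Without the 3 libraries that stood apart, 2 of the 7 genes passed, Cd14 and Nfkbia, beside 11.2% of all genes. The 3 were picked from these data and were the highest in Nfkbia at 3 M, so these calls are descriptions. Cd14 then had a log2 fold change of 0.53 and an adjusted p of 0.0214, and Nfkbia, at 0.32, had 0.0369 (edgeR's quasi-likelihood test). Leaving out TG-C 1 alone made Nfkbia pass (0.44, adjusted p 0.0309 in edgeR's test), beside 14.9% of all genes, and Cd14 not (0.35, adjusted p 0.150). Over all alternatives of the edgeR and DESeq2 tests the adjusted p ran from 0.0214 to 0.301 for Cd14 and from 0.0309 to 0.786 for Nfkbia.

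The log2 fold change of Cd14 with antibiotics was 0.63 higher in TG than in WT rats (SE 0.305, 95% interval −0.04 to 1.31), but edgeR's test of this interaction gave an unadjusted p of 0.0632 and 0.998 after adjustment. A difference between the genotypes in the response of Cd14 was therefore not shown. Without the 3 libraries that stood apart it was 0.37. None of the 7 genes had an interaction that passed, and 0% of all genes did, with 0 of the 7 and 1.48% of all genes at an unadjusted p under 0.05 and 0 of the 7 called by DESeq2's Wald test. The interaction of Tlr2 was −1.02 (95% interval −2.62 to 0.58), with large error.

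**Figure D4:**
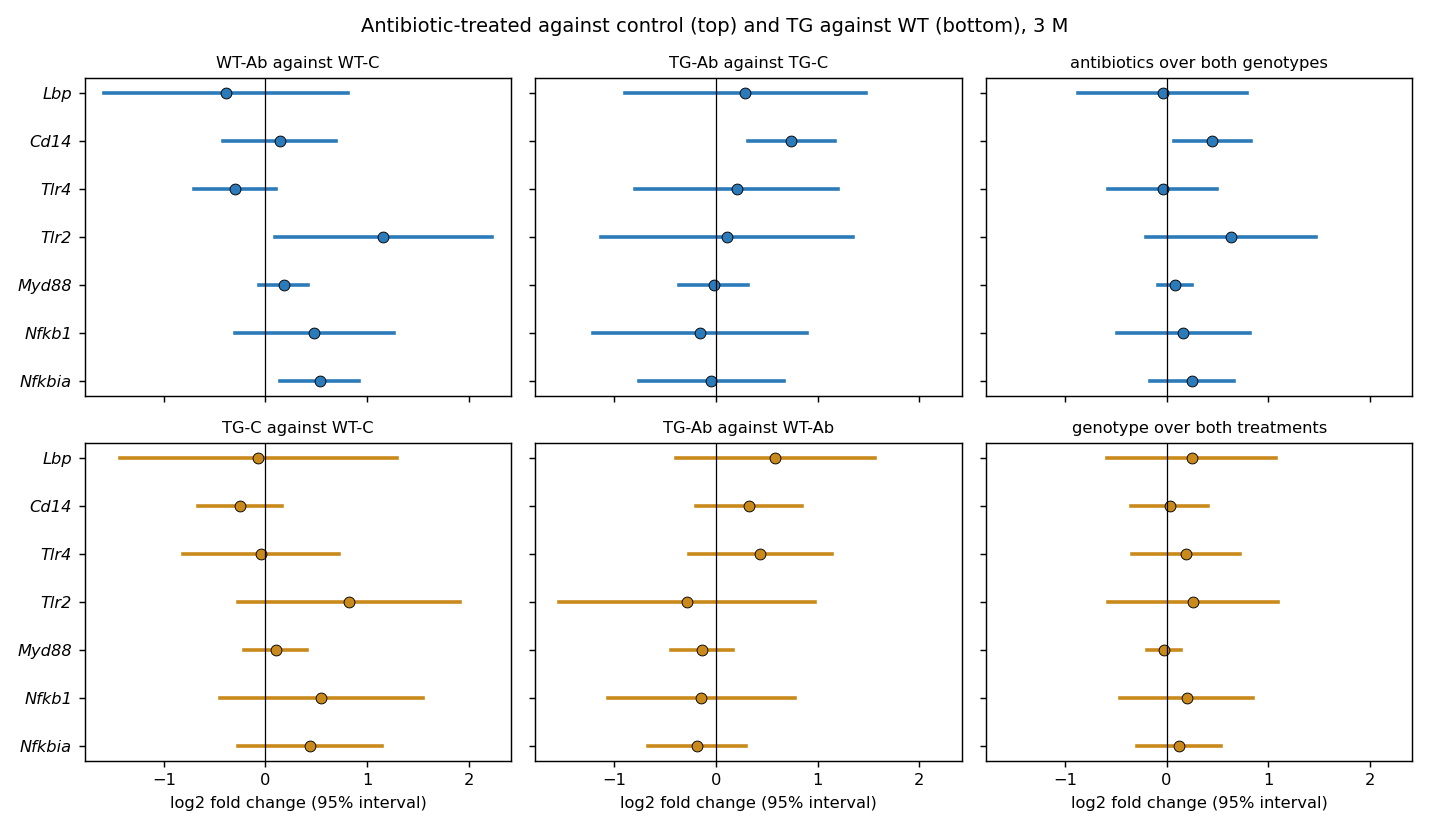
Log2 fold changes (horizontal axes, points) with 95% intervals (lines) from edgeR's fits for the 7 genes (vertical axes), for antibiotics in the upper panels and for TG against WT in the lower ones. The interval of Cd14 for antibiotics in TG rats ran from 0.31 to 1.17, and every interval for genotype included 0.

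Genotype was compared in untreated and in treated rats, with the same libraries that serve in the antibiotic comparisons. In untreated rats none of the 7 genes passed and 0% of all genes did. At an unadjusted p under 0.05 edgeR gave 0 of the 7, beside 2.63% of all genes, and DESeq2's Wald test called 0 of the 7. The levels of TG-C and WT-C overlapped in all 7 genes, whereas 8.67% of all genes had groups that did not. Tlr2 had the largest log2 fold change, 0.82 (SE 0.454, 95% interval −0.27 to 1.92). It came from TG-C 1, at 16.1 CPM beside 6.66 and 4.29 in TG-C libraries 2 and 3 and 4.61 to 5.25 in WT-C, and it was 0.19 without that library.

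Nfkb1 behaved alike, at 256.8, 92.8 and 77.2 CPM in TG-C against 92.4 to 97.0 in WT-C, with a log2 fold change of 0.55 (−0.45 to 1.55) that was −0.12 without TG-C 1. Nfkbia measured 147.3, 69.8 and 63.2 CPM in TG-C against 65.6 to 71.2 in WT-C, and its 0.44 (−0.27 to 1.15) was 0.02 without TG-C 1. Cd14 had a log2 fold change of −0.25 (−0.66 to 0.16), Tlr4 of −0.05 (−0.82 to 0.72), Myd88 of 0.10 (−0.21 to 0.40) and Lbp of −0.07 (−1.43 to 1.29).

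In treated rats none of the 7 passed, beside 0.00815% of all genes. edgeR gave 0 of the 7 and 1.31% of all genes at an unadjusted p under 0.05, and DESeq2's Wald test called 0 of the 7. Tlr4 had a log2 fold change of 0.44 for TG-Ab against WT-Ab (SE 0.293, 95% interval −0.27 to 1.14), with 71.1, 86.2 and 85.1 CPM in WT-Ab and 67.9, 140.7 and 119.5 CPM in TG-Ab. TG-Ab 1 was below all the WT-Ab libraries and TG-Ab 2 and 3 were above them. Without library 1 of both groups, which are among those that stood apart, the Tlr4 log2 fold change was 0.60 (95% interval 0.30 to 0.90). Its unadjusted p was then 0.00259 and its adjusted p 0.295 in edgeR's test, where 12.3% of all genes had an unadjusted p under 0.05. The libraries left out were picked from these data and had the lowest Tlr4 of their groups, so this p is a description. Leaving out TG-Ab 1 alone gave 0.70 for Tlr4 (adjusted p 0.918 in edgeR's test). Lbp had 0.58 (−0.39 to 1.56) and Cd14 0.32 (−0.20 to 0.85), and the groups overlapped in all 7 genes, beside 4.23% of all genes in which they did not. Without TG-Ab 2 the log2 fold change of Lbp was 0.064, and without WT-Ab 1 that of Cd14 was 0.14. The other 4 genes lay between −0.29 and −0.14.

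Over both treatments the 7 genes had log2 fold changes between −0.02 (Myd88) and 0.26 (Tlr2), and none passed, beside 0.00803% of all genes. edgeR gave 0 of the 7 and 2.85% of all genes at an unadjusted p under 0.05, and DESeq2's Wald test called 0. The narrowest intervals were those of Myd88 (−0.19 to 0.14) and Cd14 (−0.35 to 0.41), for a single difference taken over both treatments. For Cd14 this value joins opposite signs, and within a treatment its interval was wider. It ran from −0.66 to 0.16 in untreated rats and from −0.20 to 0.85 in treated rats. A genotype difference of 0.5 on the log2 scale is therefore not left out for Cd14 within a treatment. The widest were those of Tlr2 (−0.58 to 1.09) and Lbp (−0.58 to 1.08).

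WT rats at > 12 M had lower Cd14 and Tlr4 and higher Myd88 than WT-C rats. Cd14 measured 77.3, 76.3 and 90.2 CPM in the older rats against 101.2, 135.2 and 123.0 in WT-C, and Tlr4 measured 64.0, 43.0 and 69.3 CPM against 84.7, 103.8 and 82.4. Myd88 measured 73.8, 74.1 and 74.1 CPM against 62.7, 66.8 and 68.5. In none of these genes did the groups overlap, as in 54.1% of all genes by CPM. By CPM they did not overlap either in Tlr2 and Nfkb1, which were lower, or in Nfkbia, which was higher. Lbp overlapped, and so did Nfkbia once mitochondrial counts were left out. In edgeR's quasi-likelihood test the log2 fold change was −0.50 for Cd14 (SE 0.122, adjusted p 0.0173), −0.56 for Tlr4 (SE 0.178, adjusted p 0.0446) and 0.22 for Myd88 (SE 0.0728, adjusted p 0.0482). These were 3 of the 7 genes, beside 35.3% of all genes, so the share of the 7 was near that of any genes. At an unadjusted p under 0.05 they were 4 of the 7, beside 47.1% of all genes. Age cannot be told apart from the way of counting, which used read pairs only in the older rats, or from other differences between the libraries. Those of the older rats held 22409154 to 27293334 counts, against 16050385 to 18313906 in WT-C. Mitochondrial transcripts took 6.31% to 7.83% of counts in the older rats, against 11.6% to 13.7% in WT-C.

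The other 4 genes did not pass edgeR's test with age. Nfkbia had a log2 fold change of 0.28 and lay at the threshold, with an adjusted p of 0.0521. It passed in DESeq2's Wald test (adjusted p 0.0454), which called 4 of the 7 and 39.2% of all genes, and in edgeR's test with no filter (adjusted p 0.0437) or with filterByExpr (adjusted p 0.0493). The log2 fold change was −0.18 for Nfkb1, −0.37 for Tlr2 and −0.88 for Lbp. Tlr2 had 3.59 to 3.76 CPM in the older rats and entered the test through the WT-C libraries alone. With 1 library fewer the fold changes kept their direction, at −0.41 to −0.62 for Cd14, −0.39 to −0.69 for Tlr4 and 0.18 to 0.24 for Myd88 on the log2 scale, while fewer of them passed. Leaving out WT-old library 3 left Tlr4 and Cd14 called, beside 27.4% of all genes. Leaving out WT-old library 2 or WT-C library 1 left Cd14, beside 35% and 21.9% of all genes. Leaving out WT-old library 1, WT-C library 2 or WT-C library 3 left 0 of the 7, beside 27.5%, 25.3% and 22.1% of all genes.

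Of the 12450 genes compared, the one whose log2 CPM followed Tlr4 most closely over the 12 libraries at 3 M was ENSRNOG00000007518 (3:67725947-67787990), with Pearson's r = 0.95, and 0.91 over the 9 libraries without those that stood apart. For Nfkbia it was ENSRNOG00000027914 (10:56453877-56458390), with r = 0.98 over 12 and 0.91 over 9 libraries. Both are descriptions, as the libraries share the scaling by total counts and the 3 that stood apart.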

How the data were processed

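For each library the authors deposited a table of raw counts. Per the file headers, featureCounts 2.0.0 assigned reads to Rnor6 exons, with strand option 2 and mapping quality 3 or more, as read pairs for WT rats at > 12 M and as single reads for the rest. The submitters' processing notes add bcl2fastq 2.19.1, STAR 2.5.4a and Subread. The labels name NEBNext poly(A) libraries, the study's methods QuantSeq 3′ libraries and the mRatBN7.2 genome, and which applies was not resolved.

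A gene was tested if it reached 4 CPM in 1 or more of the libraries compared. Counts were fitted in R 4.3.3 with edgeR 4.0.16 (TMM, robust glmQLFit, two-sided glmQLFTest), with Benjamini-Hochberg adjustment over all genes tested and a call at an adjusted p under 0.05. All 7 genes reached the filter in every comparison. Fits held only the groups compared, or the 12 libraries at 3 M where both factors were modelled. The scripts were tested on simulated counts. All 7 genes are named in every comparison, as is the gene of highest correlation with Tlr4 and with Nfkbia. Members, lists and alternatives were chosen with earlier results of these data known. Pathway genes and cell type markers were not analysed here for want of symbols. The name of the transgene is not reported here. The alternatives used stricter and looser filters, size factors or the Wald test of DESeq2 1.42.0, the likelihood ratio test of edgeR, a joint fit of the groups at 3 M, exact permutation, a block for the replicate number, and fits lacking 1 library or the 3 that stood apart.

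Whether replicate numbers pair libraries was checked by correlating their deviations from the group means over all genes. Between TG-C and TG-Ab, r was 0.797, 0.793 and 0.575 for numbers 1, 2 and 3, and between WT-Ab and TG-Ab it was 0.592, 0.228 and 0.554. WT-Ab 2 had a higher r, 0.475, with a TG-Ab library numbered differently. No label says that the numbers mark pairs, and they entered only the ratios by number and the fits with a replicate block. Library 1 stood apart in TG-C, WT-Ab and TG-Ab, which by itself raises r between libraries numbered 1. These values therefore do not by themselves show that the numbers mark pairs. The numbers of WT-C matched neither those of WT-Ab (−0.0541, 0.186 and −0.151) nor those of TG-C (−0.0513, 0.320 and −0.230).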

Additional observations from a re-analysis of the deposited data

How the results depend on the processing

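Calls among the 7 genes moved in 3 comparisons. For TG-Ab against TG-C, DESeq2's Wald test gave 1 call, beside 1.64% of all genes. The replicate block without the libraries that stood apart gave 1 call, beside 16.4%. With edgeR's test of all libraries compared there were 0, beside 0.00814%. For antibiotics over both genotypes there were 2 calls without the libraries that stood apart, beside 11.2% of all genes. When 1 library was left out there were 0 to 1, beside 0.715% to 14.9%. With all libraries there were 0, beside 2.79%. For WT rats at > 12 M against WT-C there were 3 calls, beside 35.3% of all genes, and 4 with DESeq2's Wald test, beside 39.2%. There were 2 calls with the likelihood ratio test (35.4% of all genes) and with no filter (21.4%). With 4 CPM in every library there were 2 among the 6 genes tested (38%). Leaving out 1 library gave 0 to 2 calls, beside 21.9% to 35% of all genes. There the adjusted p of Tlr4 in edgeR's test was 0.0756 with no filter and 0.0530 with filterByExpr, and that of Myd88 was 0.108 in the likelihood ratio test. The replicate block alone, in every comparison at 3 M, changed no call of the 7 genes.

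Log2 fold changes that did not pass also turned sign. The numbers did not match WT-C libraries with those of TG-C or WT-Ab, so for WT-C the replicate block takes in no shown pairing. With the block the sign turned for Lbp in TG-C against WT-C (0.0488), Nfkbia in TG-Ab against TG-C (0.0129) and Lbp for antibiotics over both genotypes (0.0396). Without the libraries that stood apart it was so for Nfkb1 in TG-Ab against WT-Ab (0.114), for Nfkbia (−0.0371) and Nfkb1 (−0.0197) with genotype over both treatments, for Myd88 (0.00296), Nfkbia (0.258) and Nfkb1 (0.234) in TG-Ab against TG-C, for Tlr4 (0.0133) and Lbp (0.0368) with antibiotics over both genotypes, and for Nfkb1 in the interaction (0.214). With the block as well, TG-Ab against TG-C gave 0.00113 for Myd88, 0.249 for Nfkbia and 0.236 for Nfkb1. Myd88 in TG-Ab against TG-C was 0.00265 with 4 CPM asked of every library and 0.00340 with all 4 groups in 1 fit. On log2 CPM without TMM, as in the permutation test, antibiotics gave 0.100 for Tlr4 and 0.178 for Lbp. The cause was not tested.

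Leaving out 1 library turned the sign of further log2 fold changes. For TG-C against WT-C this held for Tlr4 (−0.454 to 0.207), Myd88 (−0.00322 to 0.132), Lbp (−0.569 to 0.285) and Nfkb1 (−0.117 to 0.813). For TG-Ab against WT-Ab this held for Tlr2 (−0.655 to 0.186), Nfkbia (−0.291 to 0.00816) and Nfkb1 (−0.400 to 0.364). For genotype over both treatments this held for Tlr2 (−0.0622 to 0.520), Cd14 (−0.0851 to 0.132), Myd88 (−0.0611 to 0.0109), Lbp (−0.0305 to 0.440), Nfkbia (−0.0762 to 0.234) and Nfkb1 (−0.112 to 0.450). For WT-Ab against WT-C this held for Cd14 (−0.0419 to 0.340) and Nfkb1 (−0.00121 to 0.693). For TG-Ab against TG-C this held for Tlr4 (−0.0455 to 0.600), Tlr2 (−0.193 to 0.724), Myd88 (−0.0771 to 0.0686), Lbp (−0.244 to 0.780), Nfkbia (−0.216 to 0.355) and Nfkb1 (−0.411 to 0.486). For antibiotics over both genotypes this held for Tlr4 (−0.198 to 0.0933), Lbp (−0.318 to 0.152) and Nfkb1 (−0.0890 to 0.472). For the interaction of genotype and antibiotics this held for Nfkb1 (−0.906 to 0.0154).

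For genotype over both treatments Tlr4 had 0.38 without the libraries that stood apart (unadjusted p 0.0307, adjusted p 0.417 in edgeR's test), against 0.19. Those libraries were picked from these data and were the lowest in Tlr4 at 3 M, so this p is a description. Counting error was at most 11.6% for Tlr2 and 11.4% for Lbp, whose CPM spanned 4.70-fold and 5.76-fold over the libraries at 3 M. The sources do not say what the replicate numbers mark, and neither cell types nor RNA quality were measured here.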
